A study of Mus musculus with 24 samples.

Results

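Interferon-stimulated genes are the genes that cells switch on when interferon reaches them. The 47 genes described here were taken as a fixed list of gene symbols and matched by name to the count tables, where all 47 of 47 were found among 32728 genes. RNA was sequenced from neuron cultures and astrocyte cultures of mice with a loxP-flanked Eif2ak3, the gene for the ER stress kinase PERK. WT cultures had received a lentivirus with an inactive Cre (ΔCre) and Perk KO cultures one with active Cre, so all 8 groups carry the loxP allele and were exposed to a lentivirus. At day in vitro 14 the cultures were given tunicamycin (TM) at 5 µg/mL for 24 hours, which blocks N-linked glycosylation and loads the ER with unfolded protein, or DMSO as control. The 8 groups (2 cell types, 2 genotypes, 2 treatments) hold 3 libraries each, 24 in all. The titles number them as biological replicates, and nothing ties a number to its own culture or mouse. The tests therefore weigh a difference against the scatter of 3 libraries, part of which could be technical.

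Type I interferons such as interferon beta bind the receptor IFNAR, whose kinases JAK1 and TYK2 pass the signal on by phosphorylation. A complex that includes STAT2 and IRF9 then binds the interferon-stimulated response element (ISRE), while the gamma-activated site (GAS) is known above all from the response to interferon gamma. In the brain, astrocytes and microglia both make and answer interferon, and neurons are known for a more restrained response.

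RefSeq promoter windows (GRCm38.p6, 250 bases before to 50 after each start) were found for 35 of the 47 genes. The ISRE letters TTTC and TTTC with 2 bases of any kind between them, read on both strands, were present in the window of 18 of the 35 (51.4%), against 3.99% of the 27025 genes with a window. The GAS letters TTCNNNGAA, which read alike on both strands, were present in 9 of the 35 (25.7%), against 9.55% of all. In Isg15 and Ifit3 below, the capitals mark the ISRE letters; Ifit3b, a near-identical neighbour of Ifit3, holds the same 2 ISRE stretches. In Irf1 the capitals mark the GAS letters. Gbp5 holds both motifs and is shown with its ISRE in capitals, and Tap1 holds neither. These 6 are shown because the results on Isg15, the IFIT genes, Irf1, Gbp5 and Tap1 below run in different directions. A match describes letters in a window, not a bound site.
Isg15 (chr4:156200769-156201068, minus strand): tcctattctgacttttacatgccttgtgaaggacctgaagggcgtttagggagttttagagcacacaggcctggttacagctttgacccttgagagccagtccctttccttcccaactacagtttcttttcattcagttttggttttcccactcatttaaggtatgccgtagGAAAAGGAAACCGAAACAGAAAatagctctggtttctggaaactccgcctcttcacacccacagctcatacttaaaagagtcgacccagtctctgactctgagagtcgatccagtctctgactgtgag
Ifit3 (chr19:34583279-34583578, plus strand): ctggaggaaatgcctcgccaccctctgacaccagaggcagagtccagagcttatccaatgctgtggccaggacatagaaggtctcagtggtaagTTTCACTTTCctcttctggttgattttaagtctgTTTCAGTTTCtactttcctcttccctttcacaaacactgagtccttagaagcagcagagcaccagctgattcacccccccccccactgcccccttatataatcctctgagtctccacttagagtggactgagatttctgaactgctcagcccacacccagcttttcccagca
Ifit3b (chr19:34607707-34608006, plus strand): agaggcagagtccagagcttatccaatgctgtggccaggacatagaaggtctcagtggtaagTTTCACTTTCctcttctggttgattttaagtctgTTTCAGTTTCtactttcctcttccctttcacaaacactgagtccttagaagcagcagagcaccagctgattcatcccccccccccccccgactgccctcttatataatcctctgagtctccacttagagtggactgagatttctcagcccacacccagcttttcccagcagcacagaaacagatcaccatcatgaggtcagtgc
Irf1 (chr11:53769764-53770063, plus strand): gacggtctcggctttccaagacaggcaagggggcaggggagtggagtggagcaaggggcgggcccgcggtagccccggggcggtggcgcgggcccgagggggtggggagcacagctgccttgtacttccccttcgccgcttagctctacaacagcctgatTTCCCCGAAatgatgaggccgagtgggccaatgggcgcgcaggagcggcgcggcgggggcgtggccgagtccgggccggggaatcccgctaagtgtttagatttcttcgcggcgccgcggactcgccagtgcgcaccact
Gbp5 (chr3:142496684-142496983, plus strand): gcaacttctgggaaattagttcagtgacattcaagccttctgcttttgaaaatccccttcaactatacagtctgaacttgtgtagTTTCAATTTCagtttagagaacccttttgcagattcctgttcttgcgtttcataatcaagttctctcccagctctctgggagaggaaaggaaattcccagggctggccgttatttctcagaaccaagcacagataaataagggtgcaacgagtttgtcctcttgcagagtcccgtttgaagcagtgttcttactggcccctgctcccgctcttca
Tap1 (chr17:34187306-34187605, plus strand): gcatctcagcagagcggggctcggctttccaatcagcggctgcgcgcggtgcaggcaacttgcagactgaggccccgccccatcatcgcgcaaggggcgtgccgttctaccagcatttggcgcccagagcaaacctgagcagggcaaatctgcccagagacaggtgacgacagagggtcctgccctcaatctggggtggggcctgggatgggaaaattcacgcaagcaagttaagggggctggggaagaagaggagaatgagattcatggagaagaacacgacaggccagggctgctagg

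The libraries held 16030022 to 25934747 counts. Levels are given as CPM, a gene's counts scaled to the TMM-adjusted size of its library, with the scaling done within a cell type. Eif2ak3 was lower in Perk KO than in WT cultures in all 4 pairs of groups, at 5.25 against 34.7 CPM in control neurons and 6.84 against 26.3 CPM in control astrocytes; counts over the whole gene do not resolve the deleted exons. Neuron markers summed to 3122 to 6445 CPM in the neuron libraries and 242.3 to 377.4 CPM in the astrocyte libraries. Astrocyte markers did not separate the cultures: they summed to 3094 to 3300 CPM in WT control neuron cultures and 2372 to 3668 CPM in WT control astrocyte cultures. The neuron libraries thus hold RNA of astrocyte markers, and in these bulk samples a change in the number of cells of a type and a change in RNA per cell cannot be told apart. In the astrocyte cultures replicate 1 stood apart: it was the lowest library for 46 of 47 genes in WT controls, 47 of 47 in TM-treated WT, 45 of 47 in Perk KO controls and 29 of 46 in TM-treated Perk KO, while summed microglia and macrophage markers were highest in replicate 1 of each of the 4 groups. Same-numbered astrocyte libraries deviated together, so values within a number are given where they matter.

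Interferon-stimulated genes were abundant in astrocyte cultures and scarce in neuron cultures. In WT controls the 47 genes together made up 11540, 20270 and 19850 CPM in the astrocyte libraries and 366.9, 424.7 and 469.4 CPM in the neuron libraries. No neuron library came near an astrocyte library. All 47 were called lower in neuron than in astrocyte cultures, both in WT controls, where 35.8% of all genes tested were called higher and 35.2% lower, and in Perk KO controls, where 35.4% and 33.9% were. The median log2 difference of the 47 was -5.70 in WT and -3.56 in Perk KO, against -0.03 and -0.00 over all genes tested.

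Compared per kilobase of gene length, Isg15, a ubiquitin-like protein attached to other proteins, had the highest level of the 47 in WT control astrocytes at 1428 CPM per kb, the 8th highest of all genes. Ifit3, a member of the IFIT family that binds viral RNA, followed at 1253 CPM per kb (13th) and Bst2, tetherin, which holds budding virions at the cell surface, at 1155 CPM per kb (15th). The spread between libraries was wide enough (Bst2 SD 304.1 CPM per kb) that the order of these neighbours does not exceed it. At the low end stood Oas3, an RNA-activated 2'-5' oligoadenylate synthetase, at 1.31 CPM per kb, below Sp100, a nuclear body protein, at 2.25 CPM per kb. Of the 47, 13 ranked within the top 500 genes in WT control astrocytes, 5 in TM-treated WT, 6 in Perk KO controls, 3 in TM-treated Perk KO and 0 in each neuron group.

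In WT control neuron cultures the order was different. Ifi27, a small interferon-induced membrane protein, was highest at 45.6 CPM per kb, then Bst2 at 30.6, Ifit3 at 16.1 and Isg15 at 13.04 CPM per kb. The gap between the cell types was widest for Mx2, a dynamin-like GTPase gene, with a log2 difference of -8.17 (SE 0.52, adjusted p = 1.18e-06). The annotation of the counts lists Mx2 as a polymorphic pseudogene. The gap was also wide for Gbp4, a guanylate binding protein (-7.96, SE 0.45, adjusted p = 5.6e-07). In the WT control neuron libraries Mx2 had 18, 35 and 28 counts and Gbp4 13, 7 and 8, so both sizes rest on low counts. Sp100 had 1 count in each WT control neuron library against 178, 384 and 411 counts in the astrocyte libraries, too few for a fold change. It was narrower for Stat2, the interferon-specific STAT, at -3.75 (SE 0.23, adjusted p = 9.84e-07), and for Tap1, a subunit of the peptide transporter that loads MHC class I, at -4.10 (SE 0.19, adjusted p = 1.40e-07).

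**Figure D1:**
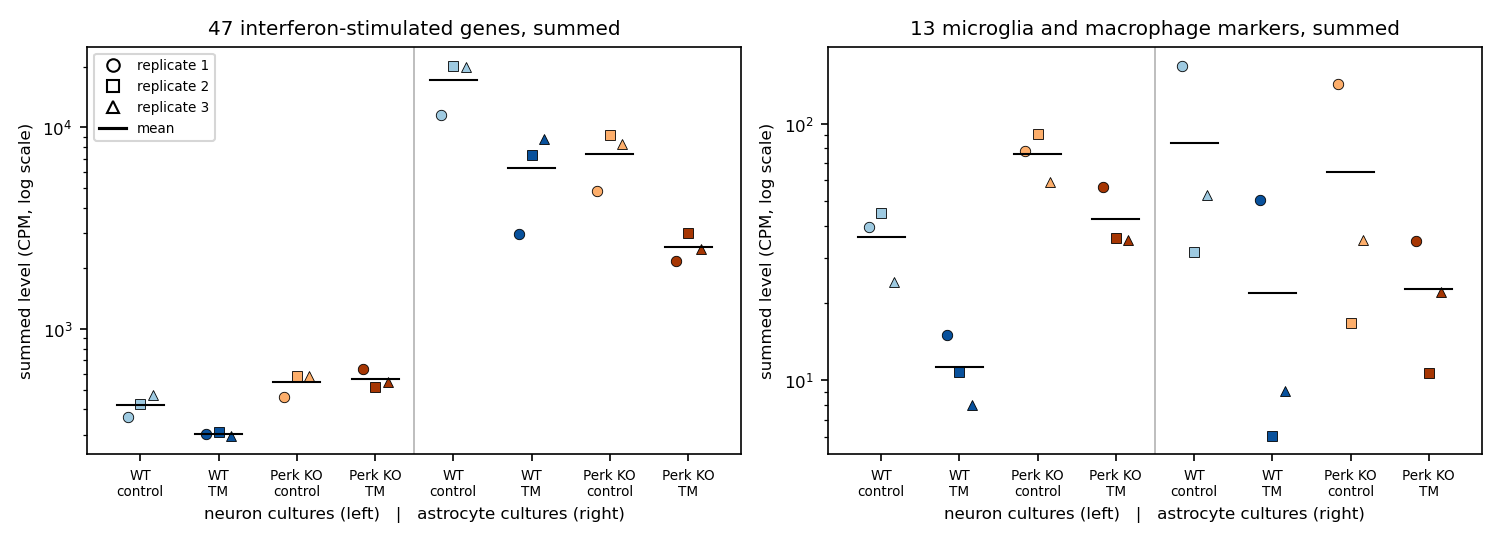
Summed level in CPM on a log scale of the 47 interferon-stimulated genes (left) and of 13 microglia and macrophage markers (right), 1 point per library, symbols for the replicate number, lines for the group mean. The astrocyte libraries hold 2172 to 20270 CPM of interferon-stimulated genes and the neuron libraries 296.1 to 637.0 CPM; in the astrocyte groups replicate 1 is lowest on the left and highest on the right.

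In control astrocyte cultures most of these genes were lower in Perk KO than in WT. Perk KO libraries summed to 4811, 9122 and 8280 CPM against the 11540 to 20270 CPM of WT, and the groups did not overlap. Within each replicate number, Perk KO stood at 41.7%, 45.0% and 41.7% of WT, with 46, 46 and 46 of the 47 genes lower. The test called 0 genes higher and 39 lower of 47, where 4.71% and 10.2% of all genes were called higher and lower, with a median log2 fold change of -1.36 against 0.03 over all genes.

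Members of all 11 roles were called lower in this comparison. All 4 transcription factors fell. Irf7, the factor that amplifies interferon production, read 45.9, 121.5 and 119.5 CPM in Perk KO and 159.6, 345.7 and 366.7 CPM in WT controls, and Irf1, a transcription factor whose window holds the GAS letters, read 48.2, 62.1 and 66.8 CPM against 159.8, 282.2 and 288.5 CPM. No Perk KO library reached the lowest WT library for either gene. Irf7 fell by 1.61 (SE 0.41, adjusted p = 0.0363) and Irf1 fell by 2.05 on the log2 scale (SE 0.23, adjusted p = 0.00695). The sensors also fell, 4 of 4, among them Ifih1, the double-stranded RNA sensor MDA5, which fell by 1.62 (SE 0.33, adjusted p = 0.0190).

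The steepest differences were among the effectors. Mx1, a dynamin-like GTPase against influenza-like viruses, read 5.27, 15.9 and 14.5 CPM in Perk KO and 57.6, 185.8 and 188.0 CPM in WT controls, far apart in every library. Its log2 fold change was -3.60 (SE 0.53, adjusted p = 0.00994), and that of Mx2 was -3.27 (SE 0.57, adjusted p = 0.0136). Gbp5, a guanylate binding protein that assembles on pathogen membranes, read 30.6, 61.1 and 46.3 CPM in Perk KO and 262.6, 457.7 and 378.0 CPM in WT, again without overlap, and Gbp4 fell by 3.13 (SE 0.38, adjusted p = 0.00877). The log2 fold change of Gbp5 was -3.00 (SE 0.28, adjusted p = 0.00471).

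Isg15, the most abundant member per kilobase in WT, read 196.2, 469.6 and 477.3 CPM in Perk KO and 661.3, 1285 and 1335 CPM in WT, and fell by 1.52 (SE 0.37, adjusted p = 0.0320). Ifit1, which binds RNA lacking the host cap methylation, fell by 1.36 (SE 0.36, adjusted p = 0.0408). Ifit3 gave -0.84 (SE 0.32, adjusted p = 0.108) and did not pass, nor did Ifit3b (-0.99), Bst2 (-0.93), Samd9l (-0.20) or Ifi27 (0.16). With the replicate number as a block, 45 of 47 were called lower, Bst2 among them (-0.98, adjusted p = 6.9e-05). The count of 39 rested on few libraries: it was 3 without WT replicate 2, 18 without WT replicate 3, and 20, 18 and 24 without Perk KO replicates 1, 2 and 3. Microglia and macrophage markers, 12 of 13 tested, gave 0 calls in either direction. For replicates 1, 2 and 3 they summed to 143.0, 16.66 and 35.24 CPM in Perk KO and 168.5, 31.55 and 52.55 CPM in WT. The sum was thus lower in Perk KO within each replicate number. The part of these markers in the result was not tested. Astrocyte markers were called higher for 3 of 10 and lower for 0.

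**Figure D2:**
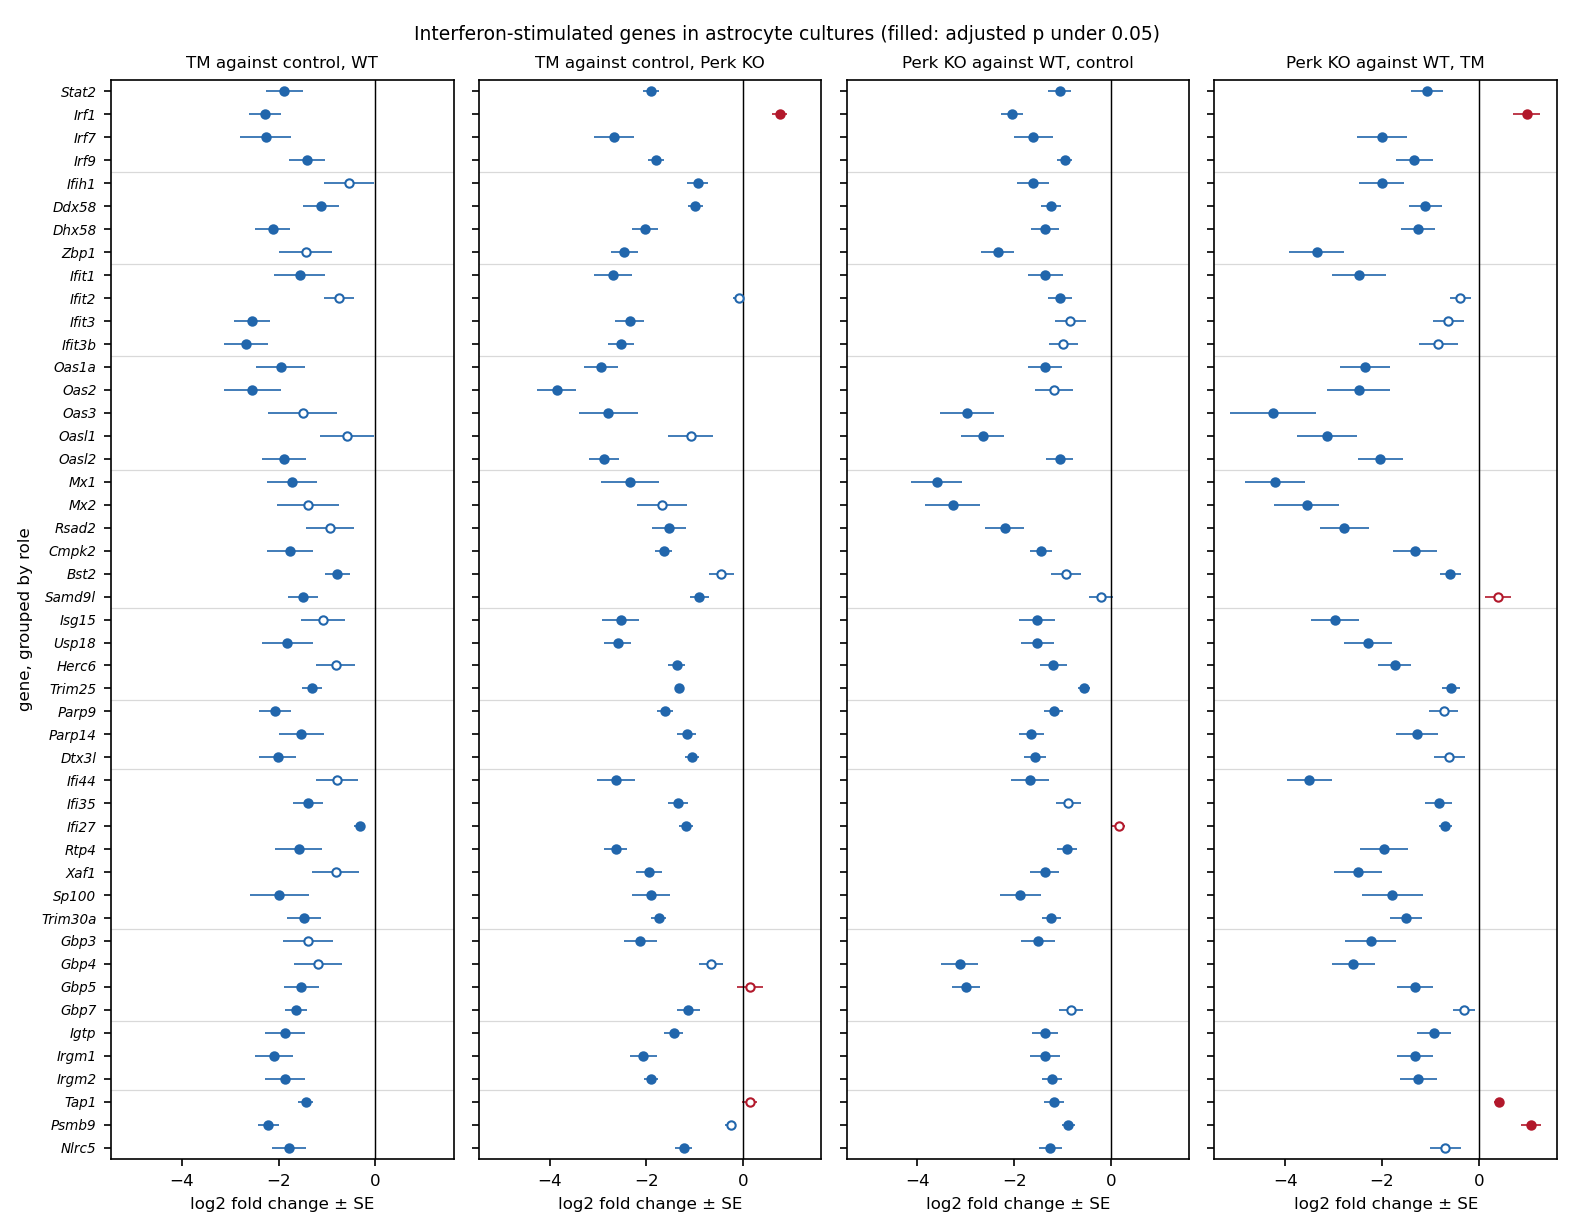
log2 fold change with standard error of each of the 47 genes in 4 comparisons of astrocyte cultures, grouped by role; filled points have an adjusted p under 0.05 and red points lie above 0. All 47 points lie below 0 for TM in WT, and Irf1, Tap1 and Psmb9 are the filled points above 0 for Perk KO against WT under TM.

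The group was lower under tunicamycin in WT astrocyte cultures as well. The TM libraries summed to 2976, 7267 and 8712 CPM, below the 11540 to 20270 CPM of the controls, and within each replicate number TM stood at 25.8%, 35.9% and 43.9% of its control with all 47 genes lower. The test called 0 higher and 34 lower of 47, where 25% and 27.7% of all genes were called, with a median of -1.53 against -0.01. With the replicate block all 47 were called lower. The shares over all genes given here are those of the fit without the block. This comparison and that of the genotypes in controls share the WT control libraries.

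Ifit3 read 185.0, 442.6 and 519.7 CPM under TM and 1606, 2548 and 2489 CPM in controls, with every TM library below every control. It fell by 2.55 (SE 0.37, adjusted p = 9.2e-04) and Ifit3b by 2.67 (SE 0.46, adjusted p = 0.00201). Because reads from the 2 near-identical genes may be divided between them, their separate values are uncertain. Oas2, another 2'-5' oligoadenylate synthetase, fell by 2.54 (SE 0.58, adjusted p = 0.00769). Irf1 read 29.1, 56.8 and 67.0 CPM under TM against 159.8 to 288.5 CPM and fell by 2.27 (SE 0.33, adjusted p = 9.3e-04).

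Members that did not pass in this comparison were Isg15 (-1.08, adjusted p = 0.0784) and Ifih1 (-0.54, adjusted p = 0.404), with 11 others. The replicate block called both (Isg15 -1.21, adjusted p = 2.2e-04; Ifih1 -0.71, adjusted p = 0.00664). Isg15 read 201.0, 626.0 and 746.5 CPM under TM, so replicates 2 and 3 came close to the lowest control at 661.3 CPM and replicate 3 passed it. In the same libraries astrocyte markers fell, 8 of 10, from a summed 2372 to 3668 CPM to 651.9 to 738.7 CPM, and microglia and macrophage markers fell, 6 of 13 with 11 tested, from 31.6 to 168.5 CPM to 6.05 to 50.5 CPM. Means of the 13 under TM ran from Fcer1g (5.38 CPM), C1qa (4.25 CPM) and Ptprc (2.90 CPM) down to Itgam (0.287 CPM), Cx3cr1 (0.170 CPM), Trem2 (0.0755 CPM) and P2ry12 (0.0563 CPM); Fcer1g (log2 0.41) and Ptprc (0.45) did not pass. Their part in the result was not tested.

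In Perk KO astrocyte cultures most of the group was also lower under TM than in controls, and Irf1 was higher. The TM libraries summed to 2172, 2985 and 2507 CPM and the controls to 4811, 9122 and 8280 CPM, without overlap. Within replicate numbers TM stood at 45.2%, 32.7% and 30.3% of its control, with 41, 44 and 46 of the 47 genes lower. The test called 1 gene higher and 38 lower of 47, where 5.55% and 4.6% of all genes were called higher and lower, with a median of -1.68 against -0.00.

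Oasl2, an OAS family member with ubiquitin-like domains, read 32.4, 63.8 and 51.8 CPM under TM against 223.0, 449.8 and 415.3 CPM and fell by 2.88 (SE 0.31, adjusted p = 5.2e-04). Oas2 fell by 3.85 (SE 0.40, adjusted p = 4.6e-04) and Isg15 fell by 2.53 (SE 0.39, adjusted p = 0.00373). Stat2 fell by 1.90 (SE 0.17, adjusted p = 1.6e-04). Irf1 moved the other way: it read 81.5, 118.8 and 98.2 CPM under TM and 48.2, 62.1 and 66.8 CPM in controls, with no overlap, and rose by 0.75 (SE 0.16, adjusted p = 0.0183). Tap1 (0.13), Gbp5 (0.14) and Psmb9, an immunoproteasome subunit (-0.26), did not pass. Bst2 (-0.45, adjusted p = 0.350) passed with the replicate block (-0.38, adjusted p = 0.0182). Astrocyte markers were called lower for 4 of 10 and microglia and macrophage markers for 1 of 13. The latter summed to 143.0, 16.66 and 35.24 CPM in controls and 34.88, 10.67 and 22.04 CPM under TM, lower within each replicate number. Their part was not tested.

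With both factors combined, TM-treated Perk KO astrocyte cultures had the lowest mean summed level of the 4 astrocyte groups. Their libraries, at 2172 to 2985 CPM, overlapped those of TM-treated WT at 2976 to 8712 CPM. Irf1, Tap1 and Psmb9 were higher in TM-treated Perk KO than in TM-treated WT. Against TM-treated WT, 3 genes were called higher and 36 lower of 47, where 32.1% and 31.2% of all genes were called, with a median of -1.33 against 0.01. Within replicate numbers Perk KO stood at 73.0%, 41.1% and 28.8% of WT. Isg15 read 36.5, 90.4 and 70.8 CPM against 201.0, 626.0 and 746.5 CPM, far below in every library, and fell by 2.97 (SE 0.50, adjusted p = 9.4e-04). Mx1 fell by 4.21 (SE 0.62, adjusted p = 4.7e-04) and Ifi44, an interferon-induced cytoplasmic protein, fell by 3.503 (SE 0.47, adjusted p = 2.7e-04). Bst2 fell by 0.59 (SE 0.21, adjusted p = 0.0373), with overlapping libraries.

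Psmb9 read 33.3, 30.6 and 28.2 CPM in Perk KO under TM and 11.6, 12.5 and 20.1 CPM in WT under TM, without overlap, and was 2.11-fold higher (log2 1.08, SE 0.21, adjusted p = 0.00231). Tap1 read 144.8, 154.3 and 145.8 CPM against 110.3, 115.7 and 113.9 CPM (log2 0.41, SE 0.09, adjusted p = 0.00387), and Irf1 was higher by 0.99 (SE 0.28, adjusted p = 0.0138). Psmb9 and Tap1 lie head to head on chromosome 17 (34181988 to 34187764 and 34187553 to 34197225) and overlap there, and the kit does not mark strand, so reads in the overlap cannot be told apart. Astrocyte markers were called higher in Perk KO for 9 of 10, at 1965 to 2648 CPM against 651.9 to 738.7 CPM, while microglia and macrophage markers gave 0 calls of 8 tested; the part of either was not tested.

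The change under TM differed between genotypes for 6 of 47 genes (12.8%) in astrocyte cultures, 4 higher and 2 lower. Of all genes 19.8% were called higher and 14.6% lower, so the count is below that background. The median interaction of the 47 was -0.04. The interaction was 3.01 for Irf1 (SE 0.41, adjusted p = 2.0e-04), 1.94 for Psmb9 (SE 0.26, adjusted p = 1.8e-04), 1.56 for Tap1 (SE 0.25, adjusted p = 5.5e-04) and 1.65 for Gbp5 (SE 0.52, adjusted p = 0.0274). It was -1.85 for Ifi44 (SE 0.67, adjusted p = 0.0491) and -0.87 for Ifi27 (adjusted p = 0.00503). With the replicate block 15 were called, 6 higher and 9 lower. Among the lower were Isg15 (-1.33, adjusted p = 1.8e-04), Ifit1 (-0.94, adjusted p = 0.0296) and Oasl2 (-0.85, adjusted p = 0.0188). The shares over all genes belong to the fit without the block, so the 15 have no background beside them here. Without WT TM replicate 1 the count was 13.

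**Figure D3:**
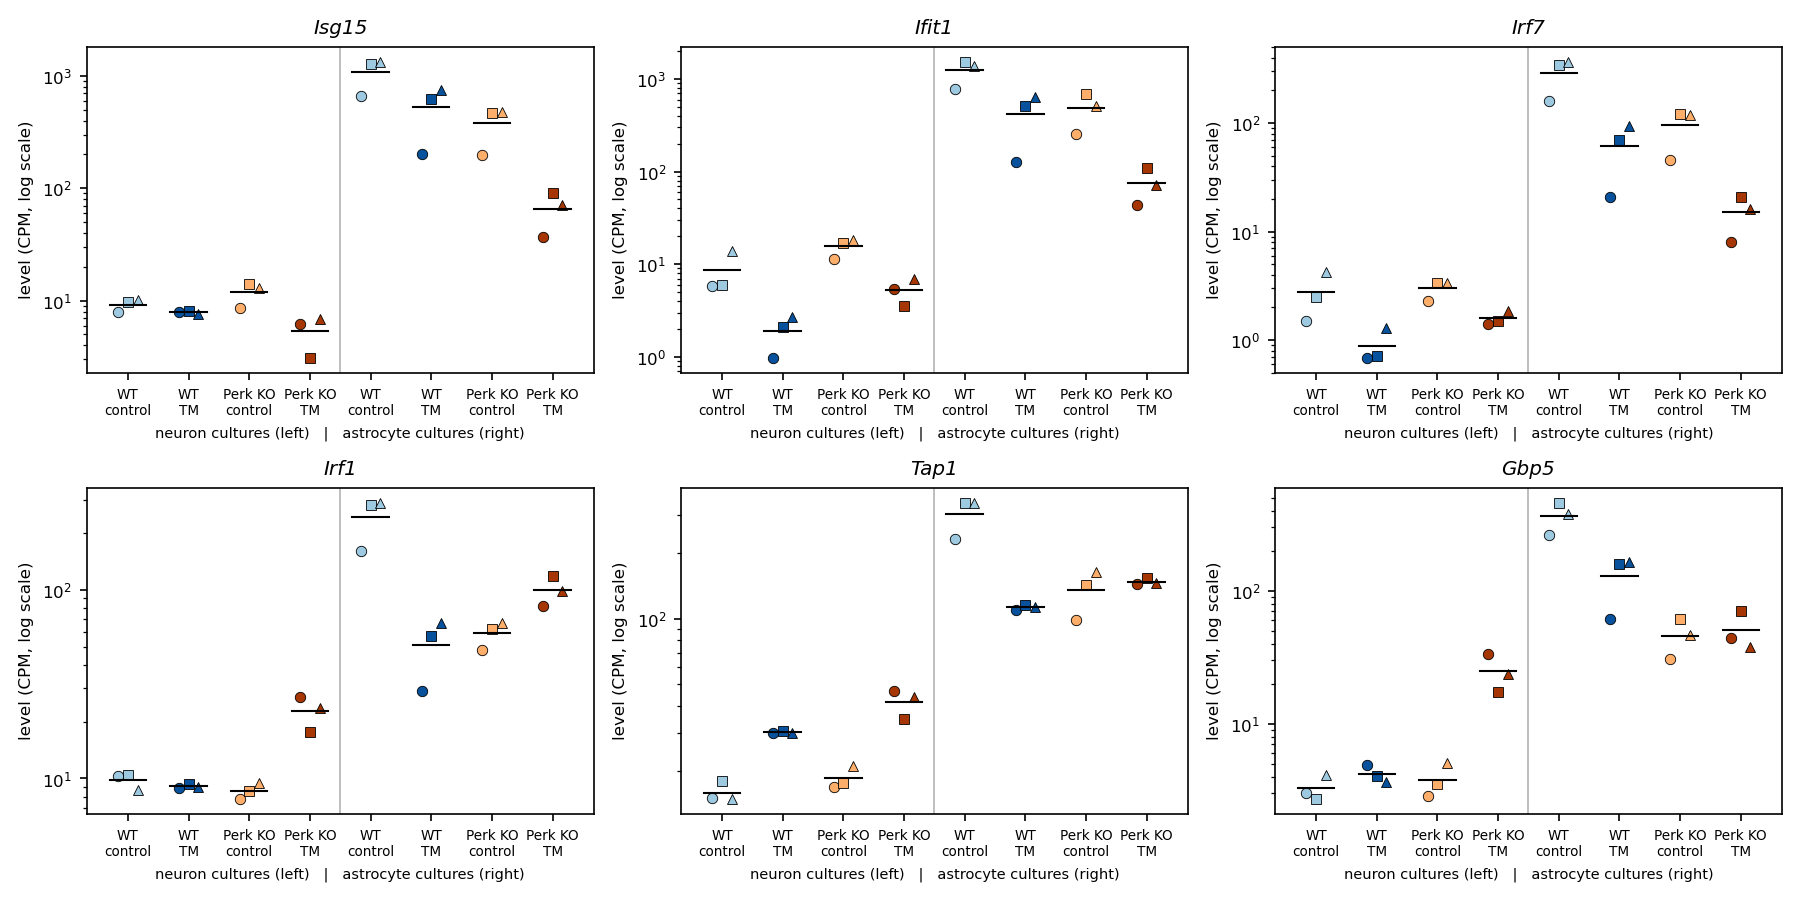
Level in CPM on a log scale of 6 interferon-stimulated genes in each of the 24 libraries, 1 point per library, lines for the group mean. In astrocyte cultures Isg15, Ifit1 and Irf7 have their lowest group means in TM-treated Perk KO, whereas Irf1 and Tap1 are higher there than in TM-treated WT. In neuron cultures Gbp5 is highest in TM-treated Perk KO at 17.3 to 33.4 CPM.

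In control neuron cultures the called genes were higher in Perk KO than in WT. Control Perk KO neuron libraries summed to 460.4, 585.0 and 586.5 CPM and WT to 366.9, 424.7 and 469.4 CPM, so the groups overlapped by 1 library. Within replicate numbers, which pair these 2 groups, Perk KO stood at 125.0%, 138.0% and 125.0% of WT, with 38, 41 and 38 of the 47 genes higher. The test called 9 higher and 0 lower of the 42 genes with enough counts, where 12.2% and 9.16% of all genes were called higher and lower, with a median of 0.29 against -0.01. Zbp1, Oas2, Oas3, Oasl1 and Sp100 were too low to test.

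Samd9l, an antiviral factor that restrains translation, read 8.78, 8.49 and 10.4 CPM in Perk KO and 1.56, 0.933 and 2.78 CPM in WT, well apart, and was 5.34-fold higher (log2 2.42, SE 0.32, adjusted p = 0.00706). Gbp7 was higher by 1.77 (SE 0.41, adjusted p = 0.0218), Herc6, an E3 ligase for ISG15, by 1.55 (SE 0.40, adjusted p = 0.0287) and Ifit2, which binds RNA beside Ifit3, by 1.17 (SE 0.25, adjusted p = 0.0167). Isg15 (0.36), Irf7 (0.13) and Stat2 (-0.09) did not pass. With the replicate block, for which these 2 groups qualified, Ifih1 (0.97), Ifit1 (0.94) and Parp14 (0.69) were called too. The count of 9 was 2 without WT replicate 1, 14 without WT replicate 3, and 2 and 1 without Perk KO replicates 2 and 3. Astrocyte markers were called higher for 4 of 10, at 4069 to 4213 CPM against 3094 to 3300 CPM. Fibroblast and mural cell markers were called higher for 5 of 8 and lower for 1. Oligodendrocyte lineage markers were called higher for 1 of 8 and lower for 4, and neuron markers lower for 5 of 10. Microglia and macrophage markers were called higher for 5 of 13 with 10 tested, at 59.0 to 91.1 CPM against 24.1 to 44.8 CPM. The part of all these markers was not tested. The 5 of microglia and macrophages were C1qb, C1qc, Tyrobp, Fcer1g and Ptprc, the last at 3.00 CPM in Perk KO and 0.300 CPM in WT. Means of the 13 ran from C1qa (21.5 and 10.9 CPM) down to Itgam (0.380 and 0.236 CPM), P2ry12 (0.366 and 0.289 CPM) and Trem2 (0.228 and 0.188 CPM), all higher in Perk KO.

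The difference between the cell types was tested as an interaction. It subtracts the signed genotype difference in astrocyte cultures from that in neuron cultures and tests neither on its own. It was called for 36 of 47 genes, all toward a more positive difference in neuron cultures, where 11.9% of all genes were called higher and 8.43% lower. The difference of the 2 log2 fold changes was 4.45 for Gbp4 (SE 0.72, adjusted p = 0.00316) and 1.85 for Isg15 (SE 0.47, adjusted p = 0.0176). It was 1.80 for Irf1 (SE 0.29, adjusted p = 0.00314), which was at -0.20 in control neurons without passing there (adjusted p = 0.356). Gbp4 had 13, 7 and 8 counts in WT and 16, 23 and 36 in Perk KO control neuron libraries, so its size rests on low counts.

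In WT neuron cultures most of the group fell under tunicamycin. TM libraries summed to 301.5, 307.6 and 296.1 CPM, below every control. The test called 2 higher and 26 lower of 41, where 27% and 24.8% of all genes were called, with a median of -1.09 against 0.04. Rtp4, a chaperone of membrane receptors induced by interferon, read 0.679, 0.989 and 0.641 CPM under TM and 5.83, 6.48 and 11.2 CPM in controls, and fell by 3.37 (SE 0.34, adjusted p = 6.9e-05). Oasl2 fell by 2.96 (SE 0.27, adjusted p = 3.7e-05) and Irgm1, an immunity-related GTPase, by 2.18 (SE 0.22, adjusted p = 7.2e-05).

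The 2 genes that rose were Tap1 and Bst2. Tap1 read 29.9, 30.7 and 29.8 CPM under TM and 15.0, 17.9 and 14.8 CPM in controls, with no overlap, and rose by 0.88 (SE 0.12, adjusted p = 3.7e-04). Bst2 rose by 0.62 (SE 0.11, adjusted p = 0.00153). Isg15 (-0.26, adjusted p = 0.192) and Irf1 (-0.15, adjusted p = 0.404) did not pass. In the same libraries astrocyte markers fell for 9 of 10, from 3094 to 3300 CPM to 1009 to 1131 CPM, microglia and macrophage markers for 5 of 13 with 8 tested, from 24.1 to 44.8 CPM to 7.96 to 15.0 CPM, and neuron markers for 9 of 10; their part was not tested.

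In Perk KO neuron cultures members of the group moved in both directions under TM. Summed levels were 637.0, 519.1 and 546.6 CPM under TM and 460.4 to 586.5 CPM in controls, overlapping. The test called 5 higher and 9 lower of 42, where 13.1% and 10.8% of all genes were called, with a median of -0.10 against 0.02. The count called higher is thus no higher than that background. Gbp5 read 33.4, 17.3 and 23.5 CPM under TM and 2.88, 3.52 and 5.03 CPM in controls, far apart, and rose 6.53-fold (log2 2.71, SE 0.30, adjusted p = 0.00104). Irf1 rose by 1.41 (SE 0.18, adjusted p = 0.00194), Psmb9 by 1.19 (SE 0.30, adjusted p = 0.0245), Tap1 by 1.16 (SE 0.15, adjusted p = 0.00194) and Igtp, an immunity-related GTPase, by 0.95 (SE 0.20, adjusted p = 0.0126).

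Rtp4 fell by 1.77 (SE 0.24, adjusted p = 0.00203), Ifit1 by 1.56 (SE 0.28, adjusted p = 0.00636) and Isg15 by 1.14 (SE 0.32, adjusted p = 0.0361). The count of 14 was 7 and 5 without control replicates 2 and 3 and 6 without TM replicate 3. Astrocyte markers were called higher for 3 of 10 and lower for 1, and microglia and macrophage markers lower for 5 of 13 with 11 tested (35.3 to 56.5 CPM against 59.0 to 91.1 CPM); their part was not tested.

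Under TM, most of the group was higher in Perk KO than in WT neuron cultures: 31 were called higher and 1 lower of 42, where 20.7% and 19.4% of all genes were called, with a median of 1.32 against 0.02. Within replicate numbers, which pair these 2 groups, Perk KO stood at 211.0%, 169.0% and 185.0% of WT. Ifit3b read 17.0, 16.5 and 16.8 CPM against 0.226, 1.70 and 0.908 CPM and was higher by 4.19 (SE 0.46, adjusted p = 2.6e-04). Parp14, an ADP-ribosyltransferase that modulates interferon signalling, was higher by 2.70 (SE 0.29, adjusted p = 2.6e-04) and Rsad2, viperin, which makes a chain-terminating nucleotide, by 2.61 (SE 0.31, adjusted p = 4.2e-04). Gbp5 was higher by 2.63 (SE 0.27, adjusted p = 2.1e-04).

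The 1 gene called lower was Ifi44 (-0.95, SE 0.25, adjusted p = 0.0168), named after its value was seen. Isg15 read 6.18, 3.06 and 6.88 CPM in Perk KO and 7.98, 8.08 and 7.64 CPM in WT, below in every library, but did not pass (-0.48, SE 0.29, adjusted p = 0.222). Irf7 (0.89, adjusted p = 0.0862) and Bst2 (0.40) did not pass either. Astrocyte markers were higher for 10 of 10, at 3282 to 4285 CPM against 1009 to 1131 CPM. Microglia and macrophage markers were higher for 7 of 13 with 8 tested, at 35.3 to 56.5 CPM against 7.96 to 15.0 CPM. Fibroblast and mural cell markers were called higher for 5 of 8 and lower for 0. Oligodendrocyte lineage markers were called higher for 4 of 8 and lower for 1, with 7 tested. Neuron markers were called higher for 1 of 10 and lower for 2. The part of all these markers was not tested.

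**Figure D4:**
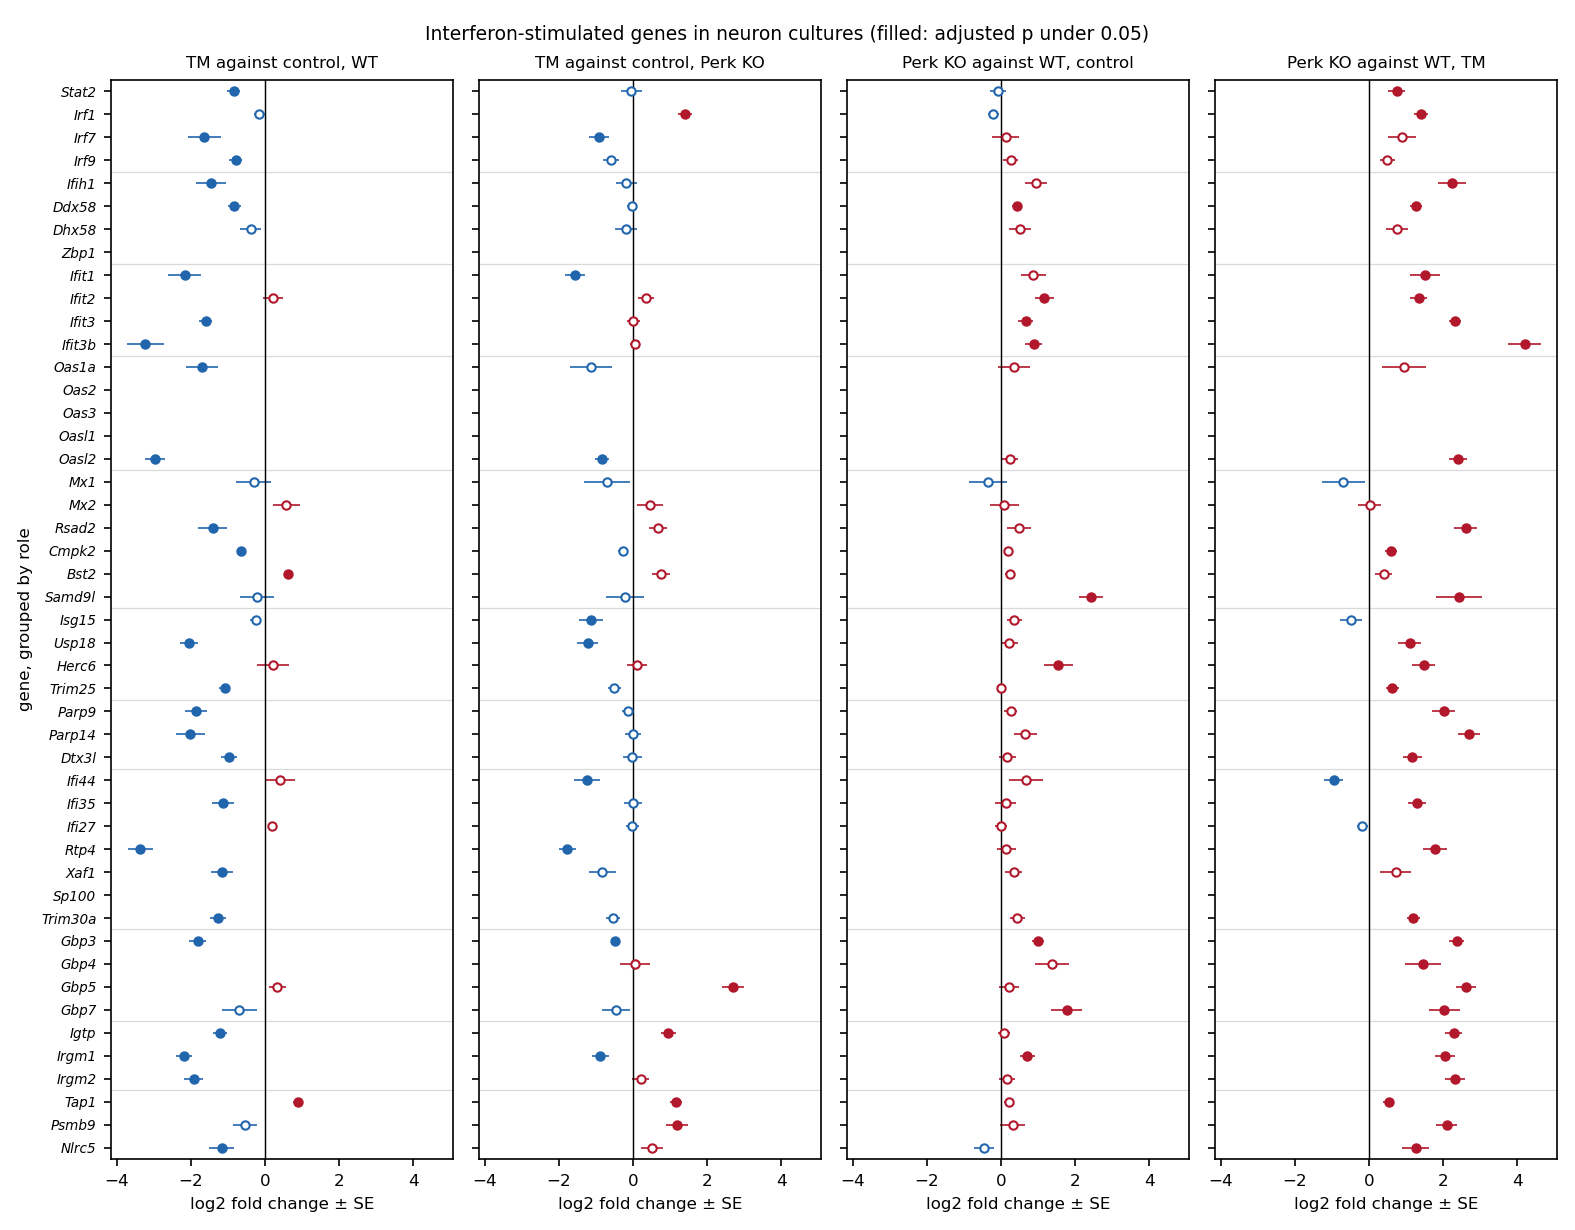
log2 fold change with standard error of each interferon-stimulated gene with enough counts in 4 comparisons of neuron cultures, grouped by role; filled points have an adjusted p under 0.05 and red points lie above 0. In WT the filled points above 0 under TM are Tap1 and Bst2, and for Perk KO against WT under TM 31 filled points lie above 0.

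The change under TM differed between genotypes in neuron cultures for 17 genes upward and 1 downward of 42, where 14.5% and 15.4% of all genes were called. Ifit3b led with 3.25 (SE 0.53, adjusted p = 8.3e-04), ahead of Gbp5 at 2.33 (SE 0.39, adjusted p = 0.0010), Igtp at 2.13 (SE 0.28, adjusted p = 1.9e-04) and Irgm2 of the same GTPase family at 2.09 (SE 0.36, adjusted p = 0.00119). All 3 immunity-related GTPases were among the 17. Igtp and Irgm2 overlap on chromosome 11, so reads in the overlap cannot be told apart.

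Between cell types, the change under TM was more positive in neuron cultures for 25 of 46 genes in Perk KO, where 6.9% of all genes were called higher and 4.78% lower. In WT this held for 5 of 47 (10.6%), where 12.4% of all genes were called higher and 12.5% lower. The WT count is thus no higher than the background. The 5 were Tap1 (2.15), Irf1 (1.95), Gbp5 (1.70), Psmb9 (1.48) and Bst2 (1.23). In Perk KO the list included Oas2 (3.98), Ifit3b (2.59), Gbp5 (2.58), Igtp (2.40) and Stat2 (1.86). Oas2 had only 1, 6 and 11 counts in Perk KO control neuron libraries and 12, 8 and 2 under TM. The size of its value rests on counts near the floor. The WT count was 8 without WT TM astrocyte replicate 1. Whether the genotype changed this contrast was called for 3 of 47 (6.38%), 2 higher and 1 lower. Of all genes 2.08% were called higher and 3.43% lower, so the count is close to that background. The 3 were Oasl2 (3.23), Ifit3b (3.25) and Tap1 (-1.18). Their count was 13 without WT TM astrocyte replicate 1 and 1 without WT TM neuron replicate 1.

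Of the interferon genes themselves, Ifnb1 and Ifna4 were read mainly in astrocyte cultures, while Ifng, interferon gamma, had few counts in any group. Ifnb1, interferon beta, read 0.383, 2.14 and 2.08 CPM in WT controls and 2.19, 6.11 and 9.53 CPM under TM. Every TM library was above every control, TM replicate 1 only narrowly. Before scaling, the counts were 8, 39 and 39 in controls and 38, 100 and 177 under TM. Ifnb1 rose by 1.94 (SE 0.67, adjusted p = 0.0394), while the 47 stimulated genes were lower in the same libraries. In Perk KO it read 0.00, 0.559 and 0.0551 CPM in controls and 0.268, 1.30 and 0.802 CPM under TM.

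Under TM, the log2 fold change of Ifnb1 in Perk KO against WT was -2.89 (SE 0.64, adjusted p = 0.00401), and in controls the difference of -2.87 did not pass (adjusted p = 0.0827), though it did with the replicate block (-3.00, adjusted p = 0.00424). The rise under TM in WT did not pass when any 1 of control replicates 1, 2 and 3 or TM replicates 2 and 3 was left out (adjusted p = 0.0630 to 0.131). Ifna4, an interferon alpha, had 62 counts over the 6 WT astrocyte libraries, in 6 of 6, and 0 over the 6 Perk KO libraries. In WT neuron cultures Ifnb1 had 0 counts, and in Perk KO neuron cultures 8, in 2 of 6 libraries; a count of 0 in a library allows up to 3 counts.

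**Figure D5:**
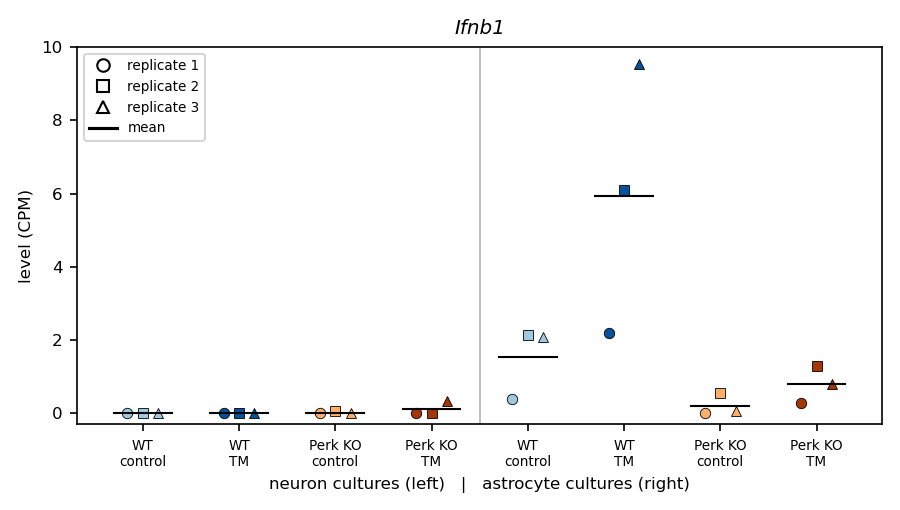
Level of Ifnb1 in CPM in each of the 24 libraries, 1 point per library, symbols for the replicate number and lines for the group mean. TM-treated WT astrocyte libraries read 2.19 to 9.53 CPM and all other groups stay at or below 2.14 CPM.

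Of 30 upstream genes (interferons, receptors, kinases, sensors and inhibitors), TM in WT astrocyte cultures changed 10 of 25 tested, 3 higher and 7 lower, where 25% and 27.7% of all genes were called, so the count is no higher than that background. Ifnar1, a receptor chain, rose by 0.99 (adjusted p = 2.2e-04), and Tlr3, the endosomal sensor of double-stranded RNA, fell by 1.97 (adjusted p = 1.1e-04). In WT neuron cultures the counts were 6 higher and 2 lower of 22, where 27% and 24.8% of all genes were called, which is no excess over the background either. The largest rise was that of Mb21d1, the DNA sensor cGAS, which read 8.94, 9.84 and 7.48 CPM under TM and 0.804, 0.884 and 1.14 CPM in controls. The libraries were far apart, and the gene rose by 3.19 (adjusted p = 1.0e-05). In Perk KO neuron cultures Mb21d1 was not called, and the genotype by TM interaction was -3.17 (adjusted p = 0.00106).

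The 9 further genes of the MHC class I pathway, which display peptides to T cells, were also measured. In Perk KO neuron cultures 7 of 9 rose under TM, where 13.1% of all genes did, among them H2-K1, a classical MHC class I heavy chain, which read 377.8, 311.9 and 350.0 CPM against 119.1, 138.7 and 113.7 CPM and rose by 1.48 (adjusted p = 3.8e-04). In WT astrocyte cultures 8 of 9 fell under TM, where 27.7% of all genes did. In TM-treated astrocytes 5 of 9 were higher in Perk KO than in WT and 0 lower, where 32.1% and 31.2% of all genes were. The genotype by TM interaction was called higher for 6 of 9 in each cell type, against 14.5% of all genes in neuron and 19.8% in astrocyte cultures. These lists were tested gene by gene over all genes, not as sets.

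Medians of genes with and without the ISRE letters in their window are given as a description. In control astrocytes the median log2 difference of Perk KO against WT was -1.36 over the 18 with the letters and -1.19 over the 17 without. In TM-treated astrocytes it was -1.32 over each. In TM-treated neurons it was 2.05 over the 17 tested with the letters and 1.17 over the 15 tested without. For the cell type by TM interaction in WT the order was the reverse, 0.11 with the letters and 0.87 without. Irf1, Tap1 and Psmb9, the 3 genes higher in TM-treated Perk KO astrocytes, were among those without.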

How the data were processed

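The submitters' processing notes name fastp, HISAT2, featureCounts, DESeq2 and the build GRCm38.p6, with no order; for versions and annotation release the sources used here give nothing. The 8 deposited tables hold the authors' raw counts per gene with gene lengths, and with their own log2 fold change and p-value columns, per the file headers; the counts of a library were the same in every table that held it. Here the counts were tested with edgeR 4.0.16 quasi-likelihood fits of every gene that averaged 10 counts or more in the fitted libraries, with TMM scaling and Benjamini-Hochberg adjustment over all genes tested; "called" means an adjusted p under 0.05. Comparisons of 2 groups used their 6 libraries, and interactions the 4 or 8 groups involved. Values are CPM per library. Named genes are up to 4 called members with the largest change per comparison (mean of at least 50 counts, no overlap) and 10 fixed members. The members, lists and tests were chosen with earlier results of these data known. The scripts were tested on simulated data. Same-numbered libraries deviated together in astrocytes in 18 of 18 pairs (correlation 0.29 to 0.64) and in neurons in 10 of 18 (-0.59 to 0.56), where only the genotype comparisons qualified as paired. Replicates differed by more than sampling noise (chi-square per gene 7.06 to 70.6). Alternatives were DESeq2 1.42.0, its size factors, no count filter, a replicate block, a GC correction and leaving out each library.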

Additional observations from a re-analysis of the deposited data

Results flagged for a closer look

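The change under TM differed between genotypes in neuron cultures, by an interaction term (edgeR), for Ifit3b (log2 3.25), Irgm2 (2.09), Igtp (2.13) and Gbp5 (2.33). In astrocyte cultures, where the count called was below the share over all genes, the same term was called for Irf1 (3.01), Ifi44 (-1.85), Psmb9 (1.94) and Gbp5 (1.65). The same 4 were called in the same direction in neuron cultures, where Irf1 was at 1.52 (adjusted p = 4.2e-04), Psmb9 at 1.71 (adjusted p = 0.0155) and Ifi44 at -1.68 (adjusted p = 0.0434).

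The change under TM differed between neuron and astrocyte cultures in WT for Irf1 (1.95), Tap1 (2.15), Psmb9 (1.48) and Gbp5 (1.70). The WT count was no higher than the share over all genes. In Perk KO the change differed for Oas2 (3.98), Ifit3b (2.59), Igtp (2.40) and Gbp5 (2.58). The genotype difference in controls differed between the cell types for Mx2 (3.32), Sp100 (5.07), Oasl1 (3.28) and Gbp4 (4.45). Sp100, Oasl1 and Oas2 had too few counts in neuron cultures for a test within them, so the sizes of their values rest on counts near the floor. Gbp4 was also low, with 7 to 36 counts in the control neuron libraries.

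The term for cell type, genotype and TM together was called for Oasl2 (3.23), Tap1 (-1.18) and Ifit3b (3.25). Ifit3b shares near-identical sequence with Ifit3, so its values are uncertain.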

How the results depend on the processing

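Of 3120 alternative values of 210 named values, 2860 kept their side of the threshold, 175 lost the call and 85 gained it. Where the reported or the alternative value was called, 0 changed direction. Changes of direction between values that were both not called were not counted. Of 240 alternative counts of called genes, 213 stayed within 1.5 times the reported count. The shares over all genes given above belong to the reported fits, not to the alternatives. For Perk KO against WT in control neurons (9 called) the count was 14 with no filter on low counts, 17 with the GC correction and replicate block, and 1 to 14 leaving out 1 library. For the genotype by TM interaction in astrocytes (6) it was 15 with the replicate block, 16 with the GC correction and block, and 4 to 13 leaving out 1 library. For the cell type by TM interaction in WT (5) it was 16 with no filter, 10 with the block, 15 with the GC correction and block, and 4 to 8 leaving out 1. For the interaction of all 3 factors (3) it was 8 with no filter, 6 with DESeq2, 6 with the block, 9 with the GC correction and block, and 1 to 13 leaving out 1. Leaving out 1 library gave 5 to 16 for TM in Perk KO neurons (14) and 3 to 45 for Perk KO against WT in control astrocytes (39). The cause was not tested. Where a library was left out, its group kept 2 libraries. In neurons, where the numbers did not pair control with TM libraries, the block moved TM in Perk KO from 14 to 11 called. Low counts limit the neuron values: 5 genes could not be tested there in most comparisons.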

Other observations

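Ifng, interferon gamma, had 7 counts over the 6 Perk KO neuron libraries, in 4 of them, and 0 over the 6 WT neuron libraries. In astrocyte cultures it had 1 count in WT and 4 in Perk KO. Tmem173, the adaptor STING, was higher by 2.60 in TM-treated Perk KO than WT astrocyte cultures (edgeR, adjusted p = 0.00216), where it read 2.09, 2.43 and 2.35 CPM against 0.288, 0.122 and 0.700 CPM, without overlap. Ikbke, a kinase upstream of interferon production, was higher by 1.57 there (adjusted p = 4.1e-05). In the authors' deposited table for Perk KO against WT in control astrocytes, 44 of the 47 genes were lower at an adjusted p under 0.05 and 0 higher. The share over all genes of that table is not given here.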
